A study of Homo sapiens with 4 samples.

Results

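The genes described here are the 62 rows of the deposited table that encode WNT ligands, their receptors, and the proteins that carry or restrain the signal. They were chosen by gene symbol from 60671 rows. The symbols cover 19 WNT ligands, 10 Frizzled receptors, 2 LRP co-receptors, 4 R-spondins, 3 LGR receptors, 2 E3 ligases, 5 SFRP and 4 DKK antagonists, 3 Dishevelled adaptors, 5 members of the β-catenin destruction complex, β-catenin itself and 4 TCF/LEF factors. RNA with a poly(A) tail was sequenced from H9 cells, an established line of human embryonic stem cells, in 2 groups of 2 libraries. The control group was labelled as control. The other group, called KO+OE, carried an edited CFIm25 gene, NUDT21, and an added copy of the protein with a 3Flag tag. The study describes 3 edited clones in which CFIm25 was shortened and scarce. A lentivirus with an EF1 promoter put the protein back into 1 of them. The labels do not name the clone of these libraries. Effects of the edit, the clone, drug selection, the virus and the re-expression cannot be told apart. Cells of both groups grew in mTeSR medium, with no treatment named beyond the puromycin that selected the study's edited cultures. Whether the control cells of these libraries were selected is not stated. Edited cells without re-expression were not analysed here. Nothing in the labels says whether replicates were separate cultures, so p-values measure only the spread between these libraries.

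WNT proteins are secreted, lipid-modified ligands that bind a Frizzled receptor together with LRP5 or LRP6. Without ligand, AXIN, APC and the GSK3 kinases hold β-catenin in a destruction complex that marks it for degradation. With ligand, Dishevelled and AXIN are drawn to the membrane, β-catenin accumulates, and it joins TCF/LEF factors on DNA. R-spondins act through LGR receptors to remove ZNRF3 and RNF43, which otherwise clear Frizzled from the surface, while SFRP and DKK proteins restrain the signal outside the cell. In human pluripotent cells the pathway is known both for support of self-renewal and for the start of mesendoderm differentiation.

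NUDT21, the edited gene, was listed at 160.67 and 152.2 TPM in control against 162.09 and 156.6 TPM in KO+OE. TPM is a share of transcripts, corrected for transcript length and scaled to a common total. It is not corrected for GC content or overlapping exons, so comparisons of level between genes are approximate. NUDT21 RNA did not separate the groups, with a log2 fold change of 0.03 and a limma adjusted p = 0.980. The added copy shares the coding sequence of NUDT21, so this level cannot tell the edited gene from the copy. The cells carried the markers of their label, since 8 of 8 embryonic stem cell markers averaged 1 TPM or more and their summed level was 3219 to 3231 TPM in control against 3195 to 3218 TPM in KO+OE. Of 6 mesendoderm markers found, 1 reached a mean of 1 TPM, GATA6 at 4.35 to 8.39 TPM, and SOX17 was listed at 0. The mesendoderm list summed to 7.12 and 9.0 TPM in control and to 5.41 and 7.78 TPM in KO+OE. None of the 4 neuroectoderm markers reached a mean of 1 TPM, and these summed to 0.14 to 0.56 TPM. Of 6 fibroblast markers, LUM was listed at 0, and COL3A1 and DCN at 0 to 0.08 TPM. The collagen genes COL1A2 and COL1A1 were higher, at 12.99 to 14.47 TPM and 53.86 to 55.6 TPM. THY1, a surface protein that embryonic stem cells also carry, was at 1228 to 1352 TPM. The fibroblast list, mostly THY1, summed to 1297 to 1420 TPM in control and to 1360 to 1412 TPM in KO+OE. TPM holds no read counts, so depth is unknown, and a listed 0 is not taken as absence.

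Of the 62 genes, 26 averaged 1 TPM or more over the libraries, 16 averaged 10 TPM or more and 5 averaged 50 TPM or more. Those 5 were SFRP2, SFRP1, TCF7L1, FZD7 and GSK3A. Among the 36 genes under a mean of 1 TPM, 4 were listed at 0 in all 4 libraries, the ligands WNT6 and WNT8A, the antagonist DKK4 and the receptor LGR5. A further 7 were listed at 0 in at least 1 library.

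**Figure D1:**
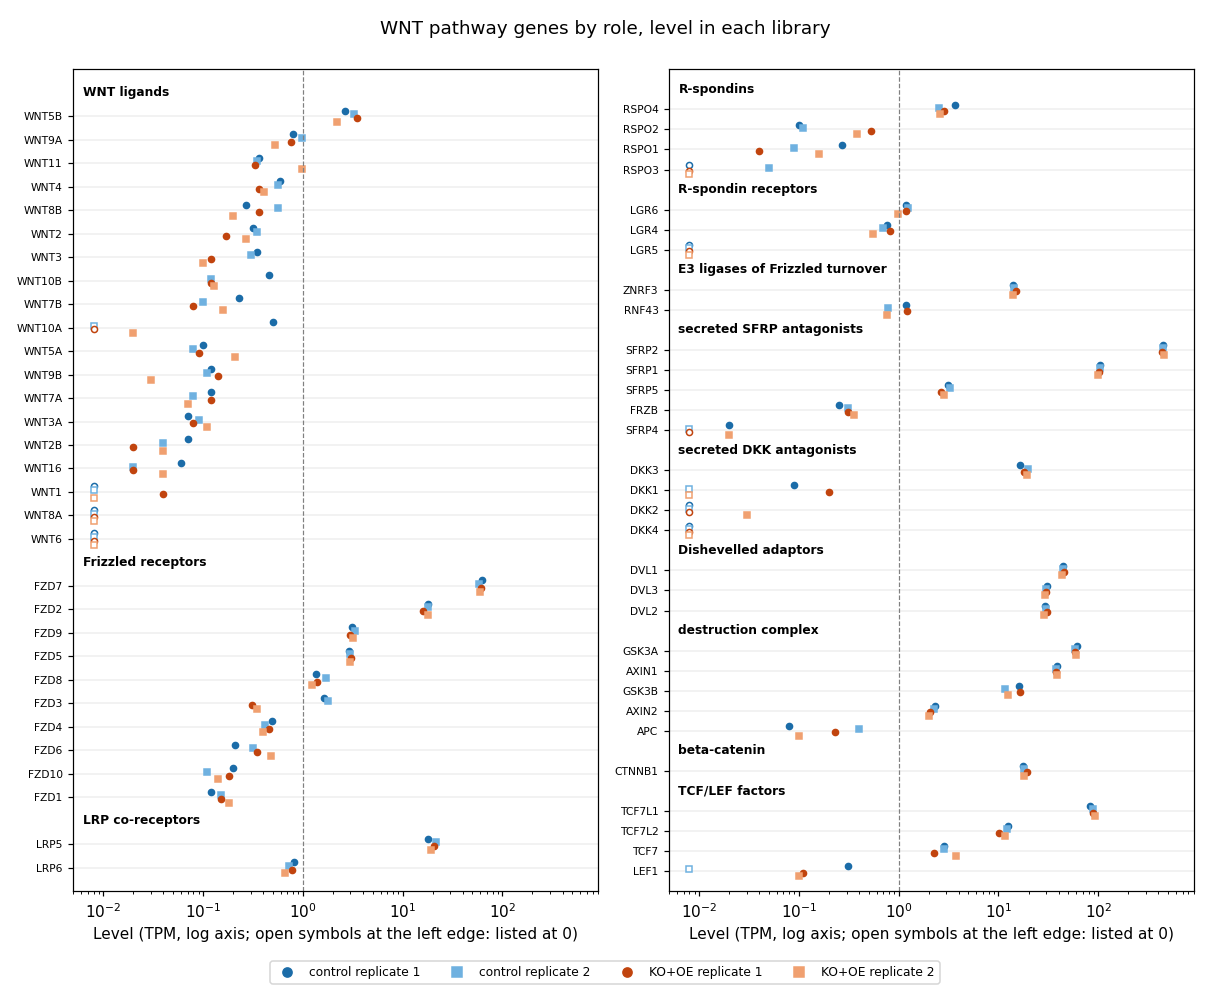
Level of each of the 62 genes in each library, in TPM on a log axis, grouped by role, with open symbols at the left edge for a listed 0 and a dashed line at 1 TPM. Ligands lie almost entirely left of the line, while the leading Frizzled, SFRP, Dishevelled, destruction complex and TCF genes lie between 43.24 and 452.98 TPM with the 4 libraries close together.

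RefSeq promoters were found for 45 of the 62 genes. The promoters of 3 genes are printed because they belong to the antagonist with the highest level, the TCF/LEF factor with the highest level and a textbook canonical ligand listed near 0. Each is the stretch of 250 bases before the start on GRCh38.p14, written 5′ to 3′ on the strand of the gene, with every CpG in capitals. SFRP2 lies on the minus strand and its stretch is chr4:153789084-153789333. TCF7L1 lies on the plus strand and its stretch is chr2:85133142-85133391. WNT3A lies on the plus strand and its stretch is chr1:228006748-228006997.
SFRP2: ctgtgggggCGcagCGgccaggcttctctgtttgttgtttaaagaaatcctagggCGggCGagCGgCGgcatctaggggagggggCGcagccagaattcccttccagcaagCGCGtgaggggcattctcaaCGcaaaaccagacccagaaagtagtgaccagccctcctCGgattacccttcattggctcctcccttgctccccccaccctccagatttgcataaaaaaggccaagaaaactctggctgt
TCF7L1: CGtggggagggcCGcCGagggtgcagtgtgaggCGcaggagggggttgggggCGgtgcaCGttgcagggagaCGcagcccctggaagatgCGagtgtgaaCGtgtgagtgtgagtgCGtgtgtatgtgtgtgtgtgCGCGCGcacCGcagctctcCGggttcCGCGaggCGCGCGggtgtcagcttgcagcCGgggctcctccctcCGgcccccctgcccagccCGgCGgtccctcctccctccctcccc
WNT3A: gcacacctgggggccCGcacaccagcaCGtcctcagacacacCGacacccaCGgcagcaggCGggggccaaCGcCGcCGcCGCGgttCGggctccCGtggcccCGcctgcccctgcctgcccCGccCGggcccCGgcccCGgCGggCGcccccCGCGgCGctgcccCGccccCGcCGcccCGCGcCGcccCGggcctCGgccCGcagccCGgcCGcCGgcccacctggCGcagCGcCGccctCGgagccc
The SFRP2 stretch held 11 CpG at 57.6% GC, that of TCF7L1 24 CpG at 72.0% GC, and that of WNT3A 38 CpG at 86.0% GC. The order of CpG number among these 3 promoters was thus the reverse of the order of level, with SFRP2 at a mean of 444.76 TPM, TCF7L1 at 88.48 TPM and WNT3A at 0.0875 TPM. Over the 45 genes with a promoter in hand, the Spearman correlation of level with CpG number was 0.215, so these 3 do not stand for the rest.

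The ligands were weakly listed as a family. WNT5B (ENSG00000111186), a ligand usually placed in the β-catenin-independent branch, was listed at 2.67 and 3.23 TPM in control against 3.45 and 2.19 TPM in KO+OE. It was the only ligand with a mean of at least 1 TPM, it was above the next ligand in every library, and it made up 44.75% of the summed ligand level. The KO+OE values lay on both sides of the control values, and the log2 fold change was -0.06 (95% confidence interval -0.61 to 0.48). WNT9A came next at 0.80 and 0.97 TPM in control against 0.76 and 0.53 TPM in KO+OE. WNT11, a β-catenin-independent ligand of gastrulation, was at 0.36 and 0.35 TPM in control against 0.33 and 0.97 TPM in KO+OE, so its higher mean in KO+OE came from 1 library. WNT10A was listed at 0.50 TPM in 1 control library and at 0, 0 and 0.02 TPM in the other three. Canonical ligands often used to start mesendoderm differentiation were low, with WNT3A at 0.07 and 0.09 TPM in control against 0.08 and 0.11 TPM in KO+OE. WNT5A, WNT7A, WNT7B, WNT8B, WNT9B, WNT10B, WNT16, WNT1 and WNT2B lay between 0 and 0.56 TPM in all libraries, and none of these separated the groups. In bulk RNA a low level can come from few cells or from little RNA per cell, which cannot be told apart. The summed ligand level was 7.09 and 6.96 TPM in control against 6.26 and 5.48 TPM in KO+OE, and the sum was not tested.

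Frizzled receptors were dominated by FZD7 (ENSG00000155760), the receptor usually described as the main one of human embryonic stem cells. It was listed at 62.30 and 57.87 TPM in control against 60.38 and 59.70 TPM in KO+OE, both KO+OE values inside the control range. Its log2 fold change was close to 0, with a 95% confidence interval of -0.14 to 0.14. FZD2 was at 17.94 and 18.04 TPM in control against 16.11 and 18.07 TPM in KO+OE. FZD7 stood above FZD2 in every library, by a ratio of 3.21 to 3.75. FZD9 was at 3.10 and 3.36 TPM in control against 2.98 and 3.19 TPM in KO+OE, and FZD5 at 2.88 and 2.96 TPM in control against 3.02 and 2.97 TPM in KO+OE. These neighbours in the order overlapped across libraries and could not be ranked. FZD8 followed at 1.35 and 1.70 TPM in control against 1.37 and 1.23 TPM in KO+OE. FZD1, FZD4, FZD6 and FZD10 stayed under 0.5 TPM in all 4 libraries. FZD7 made up 66.72% to 70.78% of the summed Frizzled level, and the sum was 90.21 and 86.73 TPM in control against 85.31 and 86.71 TPM in KO+OE.

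The largest difference among the genes tested was that of FZD3 (ENSG00000104290), a receptor best known for axon guidance and planar cell polarity. It was listed at 1.62 and 1.80 TPM in control against 0.31 and 0.35 TPM in KO+OE. Both KO+OE values lay below both control values, and the ratio of the control mean to the KO+OE mean was 5.18. On the log2(TPM + 1) scale, which understates changes of low genes, the log2 fold change was -1.03 (95% confidence interval -1.51 to -0.55). It had an unadjusted limma p of 0.00269 and an adjusted limma p of 0.705, which did not pass the threshold of 0.05. FZD3 had a mean of 1.02 TPM, just inside the filter, and owed its place there to its control libraries, since its KO+OE libraries averaged 0.33 TPM. Of the 2114 genes tested with a mean of 1 to 2 TPM, 26 had a log2 fold change as low or lower, as did 74 of all genes tested. No exon of another gene overlapped FZD3 in the annotation. Its share of the summed Frizzled level was 1.8% and 2.08% in control and 0.36% and 0.4% in KO+OE, so the total over the family moved little with it.

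**Figure D2:**
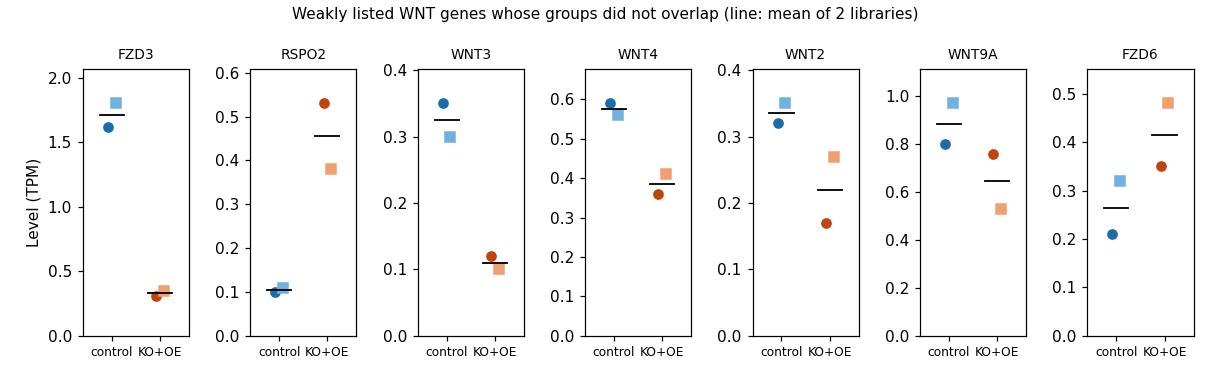
Level in TPM in each library of FZD3 and of the 6 genes under a mean of 1 TPM whose groups did not overlap, with circles for replicate 1, squares for replicate 2, lines for the mean of 2 libraries and axes that start at 0. FZD3 lies at 1.62 and 1.80 TPM in control against 0.31 and 0.35 TPM in KO+OE and did not pass the adjusted test, and the other 6 genes stay under 1 TPM throughout.

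The co-receptor level came almost wholly from LRP5, at 17.96 and 21.66 TPM in control against 20.76 and 19.46 TPM in KO+OE. LRP6 was listed at 0.82 and 0.72 TPM in control against 0.78 and 0.66 TPM in KO+OE. LRP5 stood 21.9 to 30.1 times above LRP6, and neither gene separated the groups.

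R-spondins and their receptors were low. RSPO4 was at 3.68 and 2.51 TPM in control against 2.83 and 2.57 TPM in KO+OE, with overlapping groups, and made up 87.01% of the R-spondin level. RSPO2 was listed at 0.10 and 0.11 TPM in control against 0.53 and 0.38 TPM in KO+OE. RSPO1 and RSPO3 lay between 0 and 0.27 TPM. LGR6 was at 1.19 and 1.25 TPM in control against 1.17 and 0.99 TPM in KO+OE, LGR4 at 0.76 and 0.69 TPM in control against 0.82 and 0.55 TPM in KO+OE, and LGR5, a stem cell marker of the gut, was at 0. The E3 ligase ZNRF3 was at 14.10 and 14.18 TPM in control against 15.00 and 13.87 TPM in KO+OE. Its paralog RNF43 was at 1.19 and 0.78 TPM in control against 1.2 and 0.76 TPM in KO+OE. The RNF43 values differed more between replicates than between groups.

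The secreted antagonists SFRP2 and SFRP1 had the highest levels of all 62 genes. SFRP2 (ENSG00000145423), a Frizzled-related protein that binds WNT ligands outside the cell, was listed at 444.75 and 444.46 TPM in control against 436.85 and 452.98 TPM in KO+OE. The KO+OE values lay on both sides of the control values, and the log2 fold change was 0.0008 (95% confidence interval -0.08 to 0.08). SFRP1 was at 103.50 and 103.45 TPM in control against 102.08 and 98.66 TPM in KO+OE. Both KO+OE values were lower, but the log2 fold change was -0.04 (95% confidence interval -0.15 to 0.06) with a limma adjusted p = 0.951. SFRP5 was at 3.09 and 3.27 TPM in control against 2.67 and 2.86 TPM in KO+OE, again without overlap and with a limma adjusted p = 0.948. FRZB and SFRP4 stayed under 0.4 TPM. SFRP2 made up 80.59% to 81.64% of the summed SFRP level. The SFRP genes together were 6.12 to 6.40 times the summed Frizzled level. They were 77.8 and 79.2 times the summed ligand level in control and 86.6 and 101.3 times in KO+OE. These are ratios of transcript shares, and no protein was measured. The SFRP sum was 551.61 and 551.49 TPM in control against 541.91 and 554.88 TPM in KO+OE. The ligand sum was small, at 7.09 and 6.96 TPM in control against 6.26 and 5.48 TPM in KO+OE. In it 18 of 19 ligands averaged under 1 TPM, and the ratio to it was not tested.

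Among the DKK genes, DKK3 was at 16.52 and 19.67 TPM in control against 18.05 and 19.39 TPM in KO+OE. DKK3 is the divergent member of its family, and unlike DKK1 it is not an established inhibitor of LRP5 and LRP6. DKK1, a classical β-catenin target as well as an LRP inhibitor, was listed at 0.09 and 0 TPM in control against 0.20 and 0 TPM in KO+OE. DKK2 and DKK4 stayed between 0 and 0.03 TPM.

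**Figure D3:**
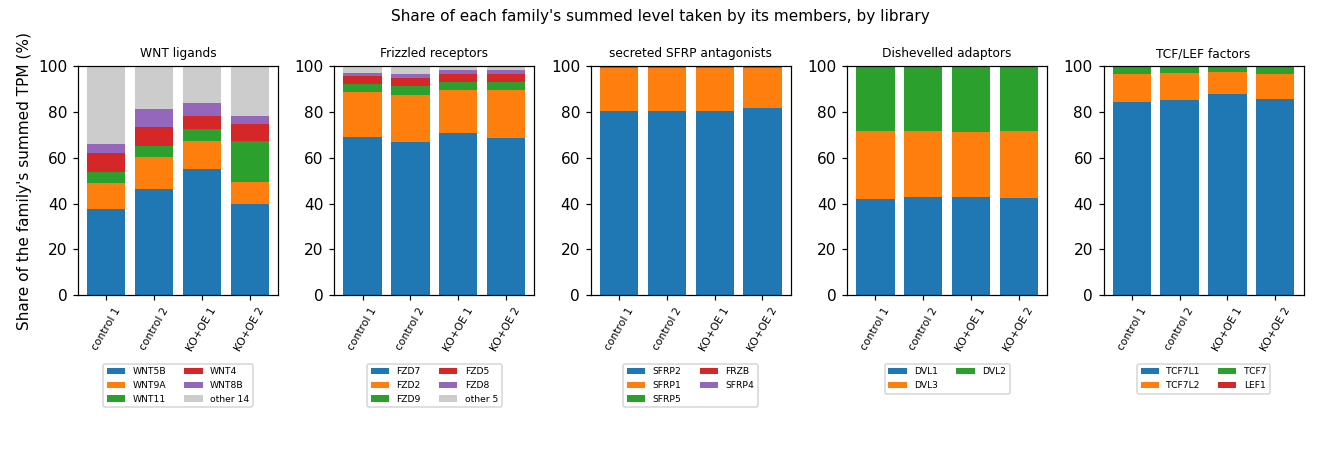
Share of each family's summed TPM taken by its members in each library, for ligands, Frizzled receptors, SFRP antagonists, Dishevelled adaptors and TCF/LEF factors. FZD7, SFRP2 and TCF7L1 each hold most of their family in all 4 libraries, DVL1 holds 42.2% to 43.06% of its own, and the ligand bars vary most between libraries.

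The Dishevelled adaptors, which relay the signal from the receptors, were listed at steady levels. DVL1 was at 44.15 and 44.55 TPM in control against 45.33 and 43.24 TPM in KO+OE. DVL3 was at 30.96 and 29.90 TPM in control against 29.67 and 29.52 TPM in KO+OE, and DVL2 at 29.51 and 29.63 TPM in control against 30.28 and 28.70 TPM in KO+OE. DVL1 was above both in every library, while DVL2 and DVL3 overlapped. The ratio of DVL1 to DVL2 lay between 1.496 and 1.507 in all 4 libraries, a narrower range than that of any other pair of members set against each other here.

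In the destruction complex, GSK3A was at 61.02 and 58.37 TPM in control against 58.36 and 59.18 TPM in KO+OE. Its paralog GSK3B, which acts redundantly with it on β-catenin, was at 16.17 and 11.61 TPM in control against 16.29 and 12.58 TPM in KO+OE. GSK3B thus differed more between the replicates of each group than between the groups. The scaffold AXIN1 was at 38.29 and 38.02 TPM in control against 37.61 and 38.76 TPM in KO+OE. AXIN2, a feedback gene that β-catenin signalling induces in many tissues, was at 2.33 and 2.25 TPM in control against 2.06 and 1.99 TPM in KO+OE. The AXIN2 groups did not overlap, but its log2 fold change was -0.12 (95% confidence interval -0.49 to 0.25) with a limma adjusted p = 0.966. APC, the scaffold mutated in colorectal cancer, was listed at only 0.08 and 0.40 TPM in control against 0.23 and 0.10 TPM in KO+OE. Its canonical transcript is 10704 bases long with 39.6% GC.

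β-catenin, encoded by CTNNB1, was at 17.52 and 17.81 TPM in control against 19.20 and 18.06 TPM in KO+OE. Both KO+OE values were higher, and the log2 fold change was 0.07 (95% confidence interval -0.11 to 0.25) with a limma adjusted p = 0.959. Signal through β-catenin acts on its protein, which these data do not measure.

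Of the TCF/LEF factors, TCF7L1 (ENSG00000152284), the member known as a repressor in pluripotent cells, was at 83.38 and 89.45 TPM in control against 89.25 and 91.85 TPM in KO+OE. It made up 84.36% to 87.72% of the family. TCF7L2 was at 12.31 and 12.30 TPM in control against 10.13 and 11.69 TPM in KO+OE, lower in both KO+OE libraries, with a log2 fold change of -0.16, a 95% confidence interval of -0.41 to 0.09 and a limma adjusted p = 0.938. TCF7 was at 2.84 and 2.86 TPM in control against 2.25 and 3.71 TPM in KO+OE, on either side of control. LEF1, the member often used as a marker of active signalling, was at 0.31 and 0 TPM in control against 0.11 and 0.10 TPM in KO+OE.

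The comparison of the groups asks whether the line that re-expresses CFIm25 carries the WNT genes at the level of control cells. None of the 26 genes tested passed a limma adjusted p of 0.05, where 0.00812% of all 12319 genes tested did, and 1 of the 26, FZD3, passed an unadjusted p of 0.05. That is 3.85% of them, and 5.33% of all genes tested passed the same threshold, 3.06% on the lower side. Without FZD3, the log2 fold changes ran from -0.16 in TCF7L2 to 0.07 in CTNNB1. The median was -0.0131 over the 26 genes and -0.012 over all genes tested, and 10 were higher and 16 lower. That split became 13 and 13 when the libraries were rescaled by median ratios, and 14 and 12 after quantile normalization. The groups did not overlap in 9 of the 26, which is 34.6% of them, and 34.1% of all genes tested showed the same. Of those 9, 7 were lower in KO+OE, FZD3, LGR6, SFRP1, SFRP5, DVL3, AXIN2 and TCF7L2, and 2 were higher, FZD5 and CTNNB1. On the log2(TPM + 1) scale the 95% confidence interval lay between -1 and 1 for 25 of the 26 genes, or 96.2%, and for 92.6% of all genes tested. For genes near 1 TPM, such as LGR6 and FZD8, such an interval still allows a change of more than 2-fold in TPM itself. For the 16 genes averaging at least 10 TPM the widest interval was that of GSK3B, from -0.44 to 0.55. A p that misses the threshold does not show that the groups were alike, and the intervals give the sizes of difference that these 4 libraries allow.

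**Figure D4:**
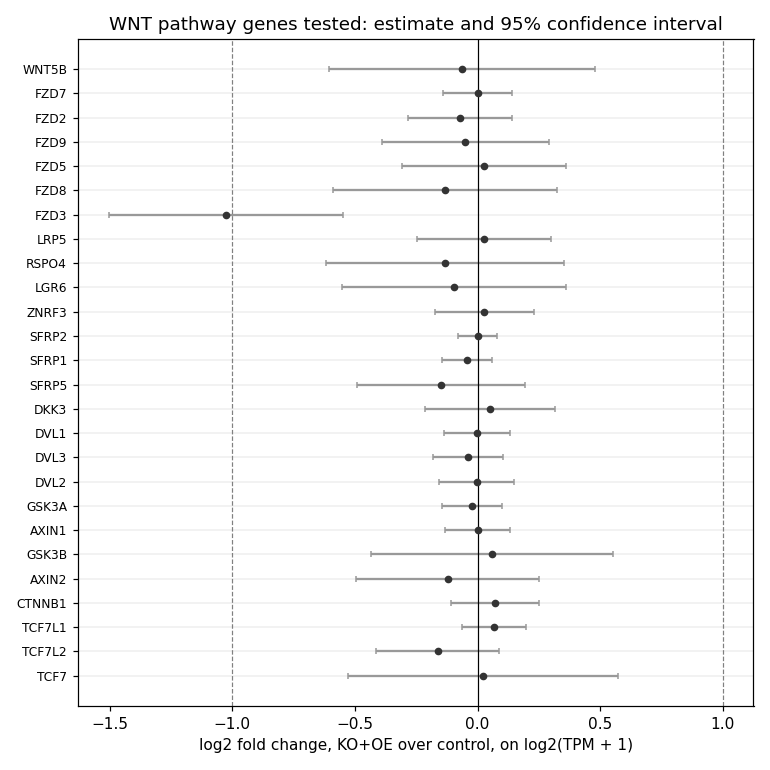
Log2 fold change of KO+OE over control for the 26 genes averaging at least 1 TPM, as points with limma 95% confidence intervals on the log2(TPM + 1) scale and dashed lines at -1 and 1. FZD3, at -1.03, is the only gene whose interval leaves the dashed lines, and the other 25 intervals include 0.

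The spread between replicates was small for these genes. The median absolute log2 difference between the replicates was 0.0438 in control and 0.0745 in KO+OE over the 26 genes, and 0.1116 and 0.1102 over all genes tested. The level of the 26 was not matched to that of the other genes in this description.

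Among the 32 genes under a mean of 1 TPM with a value above 0, the groups did not overlap in 6, or 18.8%, and in 22.6% of all such low genes. WNT3 was listed at 0.35 and 0.30 TPM in control against 0.12 and 0.10 TPM in KO+OE. WNT4 was at 0.59 and 0.56 TPM in control against 0.36 and 0.41 TPM in KO+OE, and WNT2 at 0.32 and 0.35 TPM in control against 0.17 and 0.27 TPM in KO+OE. WNT9A, given above, was the fourth that lay lower. FZD6 was the other gene besides RSPO2 that lay higher, at 0.21 and 0.32 TPM in control against 0.35 and 0.48 TPM in KO+OE, and its exons overlap an antisense gene of similar level. When every gene above 0 was tested, RSPO2 had an unadjusted limma p of 0.0117 and a log2 fold change of 0.40, and WNT3 an unadjusted limma p of 0.0177 and a log2 fold change of -0.26. Both had a limma adjusted p = 0.873. In that wider test 4.88% of 26942 genes passed an unadjusted p of 0.05.

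Other genes of the pathway were counted from lists drawn up by role. Of 35 regulators of secretion, reception and β-catenin turnover, 28 were tested, 11 were higher and 17 lower, and none passed an adjusted p of 0.05 in limma. The co-receptor PTK7 was at 97.26 and 103.58 TPM in control against 99.32 and 102.28 TPM in KO+OE, and the proteoglycan GPC4 at 63.02 and 64.11 TPM in control against 62.01 and 60.11 TPM in KO+OE. The casein kinases CSNK1E, CSNK1G2, CSNK1D and CSNK1A1, some of which phosphorylate β-catenin or LRP6, spanned a wide range, from at most 23.07 TPM in CSNK1A1 to between 92.71 and 116.19 TPM in CSNK1E. The β-catenin inhibitor CTNNBIP1 was at 34.72 to 35.76 TPM, and the phosphatase subunits PPP2R1A and PPP2CA at 244.4 to 274.2 TPM and 24.7 to 33.1 TPM.

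Of the 28 regulators tested, 2 passed an unadjusted limma p of 0.05, a threshold that 5.33% of all genes tested passed. The groups did not overlap in 11 of the 28, where 34.1% of all genes tested showed the same. Of those 11, only RYK and BTRC lay higher in KO+OE. The others lay lower, among them GPC4, CSNK1E, CSNK1D, CSNK1A1 and PPP2CA, and none of these passed an unadjusted p of 0.05. BTRC, the F-box protein that recognises phosphorylated β-catenin, was at 1.77 and 1.67 TPM in control against 2.66 and 2.61 TPM in KO+OE, with a log2 fold change of 0.42 and a limma adjusted p = 0.928. ROR1, a receptor for WNT5A, was at 3.01 and 4.53 TPM in control against 2.36 and 2.19 TPM in KO+OE, with a log2 fold change of -0.52 and a limma adjusted p = 0.928. Both are among those 11, and without control replicate 2 the log2 fold change of ROR1 was -0.29. WIF1, a secreted WNT inhibitor, was under 1 TPM at 0.32 and 0.62 TPM in control against 0.19 TPM in each KO+OE library. NDP, a Frizzled ligand that is no WNT, was listed at 0 in control and reached 0.03 and 0.06 TPM in KO+OE.

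In the planar polarity branch 7 of 8 genes were tested, 4 higher and 3 lower, and none passed either threshold. Of 12 nuclear partners found, 11 were tested, 3 higher and 8 lower, again with none past either threshold. The groups did not overlap in 1 of the 7 polarity genes and in 3 of the 11 nuclear partners, where 34.1% of all genes tested did not. Among these nuclear partners TLE1 lay lower and PYGO2 higher. The co-repressors TLE5 and TLE1, which work with TCF factors, were at 237.2 to 248.6 TPM and 23.1 to 25.2 TPM, and the β-catenin partners BCL9L and PYGO2 at 28.87 to 31.23 TPM and 19.54 to 21.04 TPM. Of 14 common targets of the pathway found, 6 were tested, 1 higher and 5 lower, and none passed either threshold. MYC was at 42.45 to 45.13 TPM and CCND1 at 19.41 to 23.7 TPM, and both are also driven by other pathways. The other 8 targets were under 1 TPM in all 4 libraries, among them SP5 at 0.05 to 0.18 TPM and TBXT at 0 to 0.22 TPM. Of the 6 targets tested, the groups did not overlap in 2, BAMBI and JUN, both lower in KO+OE. Over all genes tested, 34.1% showed the same. Under 1 TPM, ASCL2 lay higher without overlap, at 0.12 and 0.06 TPM in control against 0.17 and 0.15 TPM in KO+OE. CDX1 lay lower without overlap, at 0.25 and 0.27 TPM in control against 0.13 and 0.23 TPM in KO+OE. Of all genes above 0 and under a mean of 1 TPM, 22.6% did not overlap.

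The 62 genes were also compared in sequence and position, which the choice by symbol did not use. Across these genes the Spearman correlation of mean level with the GC content of the canonical transcript was 0.262 (n = 62 genes), and it was 0.275 over 12147 genes tested. With transcript length it was 0.131 over the 62 and -0.192 over the genes tested, and with the number of CpG in the promoter it was 0.215 as given above (n = 45 genes) and 0.084 over 8853 genes. All points share the same libraries, so these values are descriptions, and the 62 include genes under the filter while the background does not. The median GC content was 56.8% for the 26 genes averaging at least 1 TPM and 51.04% for the 36 below it. FZD3 had the lowest GC content of all 62, at 34.94%. LRP6 and APC, large genes listed under 1 TPM, were also low in GC, at 40.95% and 39.6%. Other genes low in GC were not low in level. GSK3B, with 42.17% GC and 7743 bases, averaged 14.16 TPM, and CTNNB1, with 44.66% GC, averaged 18.15 TPM. The part of GC content in these levels was not tested.

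**Figure D5:**
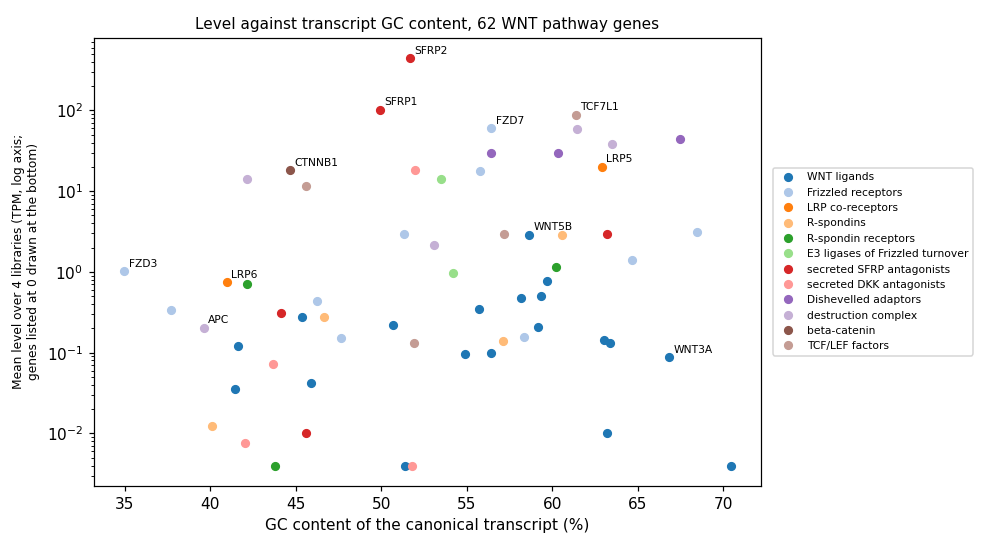
Mean level over 4 libraries in TPM, on a log axis, against the GC content of the canonical transcript in percent, with 1 point for each of the 62 genes, coloured by role. GC content runs from 34.94% in FZD3 to 70.45%, genes of similar GC content differ widely in level, and genes listed at 0 are drawn at the bottom.

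CTTTGAT and CTTTGTT, forms of the core TCF/LEF motif, were searched on both strands in the RefSeq promoters. Each window ran from 250 bases before to 50 bases after a start, and other forms of the motif were not searched. The letters CTTTGAT were in 0 of 55 windows of 45 members and in 2.62% of 35116 windows of all genes. The letters CTTTGTT were in 4 of the 55 member windows, those of DKK1, TCF7, TCF7L2 and WNT3, and in 5.2% of all windows. A match or its lack says nothing here about binding.

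There were 4 pairs of ligand genes within 100000 bases of each other on GRCh38.p14, with positions from RefSeq. WNT10B at chr12:48965340-48971735 and WNT1 at chr12:48978322-48982620 are 6586 bases apart, and WNT3 at chr17:46762506-46818692 and WNT9B at chr17:46833189-46886738 are 14496 bases apart. WNT9A at chr1:227918656-227947932 and WNT3A at chr1:228006998-228061271 are 59065 bases apart. WNT6 at chr2:218859805-218874233 and WNT10A at chr2:218874116-218893928 overlap by 118 bases. None of these 8 genes reached a mean of 1 TPM. FZD7 is at chr2:202033855-202038441 and WNT5B at chr12:1617056-1647212.

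Reads from overlapping exons cannot be told apart where the strand of counting is not stated. TCF7 overlaps SKP1, at a mean of 115.7 TPM on the opposite strand, so the TCF7 level is uncertain. Exons of FZD4 overlap PRSS23, those of GSK3A overlap ZNF526 and, on the same strand, AC006486.1, those of WNT2B overlap ST7L, and those of DKK3 overlap USP47, at a mean of 0.665 to 7.32 TPM for these partners. PRSS23 at 3.4 TPM and ST7L at 7.32 TPM were more abundant than FZD4 and WNT2B, so those levels are uncertain too. The same holds for FZD6, whose exons overlap BAALC-AS1 at 0.355 TPM, for DKK1, which overlaps PRKG1-AS1 at 0.16 TPM, and for RSPO3, which overlaps AL356534.1 at 0.015 TPM, each on the opposite strand and each above the mean of the WNT gene. WNT2 and RNF43 also overlap opposite-strand genes, at levels below their own. The remaining overlaps were with genes under a mean of 1 TPM.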

How the data were processed

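Poly(A)+ RNA of 4 libraries of H9 cells was sequenced, 2 of control and 2 of KO+OE cells, grouped by the sample titles, with columns matched to groups by their names. The submitters' processing notes name hg38, HISAT2, featureCounts, Subread and DESeq2 without versions or roles. The annotation, its version and the strandedness of counting are not given in the sources used here. The deposited table holds 60671 Ensembl genes with 1 value per library and 0 further columns of per-sample values. Its header names no unit, and the deposited values were read as TPM because each column holds decimals and sums to between 986853 and 987078. TPM rounded to 2 decimals keeps no read counts, so depth, and with it counting error, is unknown, and the precision rests on the spread between libraries.

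Genes averaging 1 TPM or more across the 4 libraries were tested on log2(TPM + 1), 12319 in all, with limma 3.58.1 (lmFit, eBayes with a mean-dependent prior, two-sided) in R 4.3.3. P-values were adjusted by Benjamini and Hochberg over all genes tested, and confidence intervals are at 95%. The step was also run on simulated data. The changes planted there were larger than any main estimate for the WNT genes tested, so that run does not cover smaller changes. The block on replicate number and other settings were alternatives, since same-numbered libraries did not deviate together (correlation of deviations -0.049). The 62 genes were picked by symbol alone, but that rule and the lists of other pathway genes and markers were chosen with earlier results of these data known. All 62 genes were accounted for, with values for those of at least 1 TPM and for those lower genes that led a family or reached 0.5 TPM in all libraries. Other pathway genes were named from the lists when over 20 TPM, past an unadjusted p of 0.05, or without overlap and over 1.5-fold apart, and markers were given by counts and summed levels. Genes named outside this rule were chosen after their values were seen. They were WNT2, WNT3, WNT3A, WNT4, WNT10A, WNT11, RSPO2, FZD6, APC, LEF1, DKK1, SP5, TBXT, BAMBI, JUN, CDX1 and RYK. The single markers GATA6, SOX17, LUM, COL3A1, DCN, COL1A1, COL1A2 and THY1 were chosen in the same way.

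Positions (62 of 62 genes) and promoters (45 of 62) are RefSeq on GRCh38.p14, matched by symbol. Transcript GC content, length and exon overlaps come from GENCODE release 44 lifted to GRCh37, matched by Ensembl identifier. GC content was found for 100% of the 62 genes and 98.6% of the genes tested. Python 3.11.15, pandas 2.3.3, numpy 2.4.6, scipy 1.17.1 and matplotlib 3.10.9 were used.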

Additional observations from a re-analysis of the deposited data

How the results depend on the processing

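The settings tried were a pseudocount of 0.1 or 5, a filter at 5 TPM or none, median-ratio rescaling, quantile normalization, a constant prior in limma, a replicate block, and each library left out in turn. No WNT gene passed an adjusted p of 0.05 in limma under any of them. Over all genes 1 passed, and 0 passed with a pseudocount of 0.1 or 5, no filter, the 5 TPM filter, quantile normalization or the replicate block, and 0 to 1 without a library (1 without control replicate 2, 0 without any of the others). At an unadjusted p of 0.05, 656 genes became 1314 without a filter and 412 at 5 TPM, where more or fewer genes were tested, and 554 to 634 without a library. The 1 WNT gene became 3 without a filter, with RSPO2 and WNT3, and 0 at 5 TPM, which drops FZD3.

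FZD3 stayed lower in KO+OE in the alternatives that kept it, with log2 fold changes of -2.07 at a pseudocount of 0.1 and -0.33 at 5, -1.07 to -0.98 without a library, and adjusted p of 0.353 to 0.920 in limma. The median over the WNT genes tested, -0.0131, was -0.0234 without a filter, 0.0003 at 5 TPM, -0.0005 with median-ratio rescaling, 0.0059 with quantile normalization, and -0.0308 to -0.0116 without a library. The cause was not tested.

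Under median-ratio rescaling and quantile normalization the log2 fold changes of FZD7 (0.012 and 0.02), DVL1 (0.01 and 0.0088) and DVL2 (0.0081 and 0.0079) turned from lower to higher, as did GSK3A under quantile normalization (0.004). Leaving out a library gave log2 fold changes of -0.305 to 0.176 for WNT5B, -0.052 to 0.052 for FZD7, -0.15 to 0.0061 for FZD2, -0.103 to 0.154 for LRP5, -0.34 to 0.075 for RSPO4, -0.026 to 0.08 for ZNRF3, -0.025 to 0.027 for SFRP2, -0.069 to 0.17 for DKK3, -0.036 to 0.031 for DVL1, -0.042 to 0.033 for DVL2, -0.053 to 0.0097 for GSK3A, -0.02 to 0.022 for AXIN1, -0.164 to 0.281 for GSK3B, -0.244 to 0.291 for TCF7 and -0.012 to 0.066 for NUDT21. These 15 genes, of 29 followed singly, turned sign when a library was left out, where the lone library was assumed to vary like the other group. Of 220 values for single genes under the other alternatives, 7 turned sign.

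The replicate block gave 673 genes at an unadjusted p of 0.05, 0 WNT genes at an adjusted p of 0.05 and an adjusted p of 0.827 for FZD3 in limma. The numbers pair nothing in the labels. Values under 1 TPM rest on an unknown and possibly small number of reads, which limits what can be said of 36 of the 62 genes.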
